A study of Mus musculus with 14 samples.

Results

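The respiratory chain of the mouse testis was examined through 89 genes that encode subunits, tissue isoforms and assembly factors of the mitochondrial chain. They were chosen by name, as all gene names of the array that begin with Nduf, Uqcr, Atp5 or Cox followed by a digit, together with Sdha to Sdhd, Cycs and Cyct. They are 89 of the 27962 gene names on the array, and the brightest of a gene's probes stood for it. By class, 35 are subunits of complex I, 4 of complex II, 7 of complex III, 2 are cytochromes c, 18 are subunits of complex IV, 5 are assembly factors of complex IV, 16 belong to ATP synthase and 1, Ndufaf1, assists the assembly of complex I. Cox4nb, a neighbour of Cox4i1 now named Emc8, carries the name without being part of the chain. Some array names are old: Atp5s is now Dmac2l, Atp5f1 is Atp5pb and Uqcr is Uqcr11.

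Complexes I and II pass electrons from NADH and succinate to ubiquinone, complex III passes them to cytochrome c, and complex IV hands them to oxygen. The proton gradient built on the way drives ATP synthase. In the testis, meiotic and postmeiotic germ cells replace some subunits by germ cell isoforms: Cyct is the testis form of cytochrome c, Cox6b2 that of Cox6b1, and Cox8c, known as a testis isoform, that of Cox8a. Muscle has its own isoforms, among them Cox6a2, Cox7a1 and Cox8b.

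The study measured total RNA of whole testis from untreated C57BL/6 mice kept with their mothers, on single-colour Agilent arrays of 60-base probes. Glis3KO2 is the label of the knockout mice for Glis3, a zinc finger transcription factor, and the others are labelled WT. At 4 weeks there were 3 Glis3KO2 and 3 WT samples, and at 1 week 4 Glis3KO2 and 4 WT samples. The labels give 4 weeks for the older samples where the series description gives 3 weeks, and the labels are followed. How the Glis3KO2 allele was made and which cells it affects are not given in the sources used here. Nothing says that the samples are separate animals, so p-values measure only the spread between these samples. Precision is set by how few arrays there are in a group.

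All levels below are log2 signals minus the 75th percentile of the array, and a gene counts as changed at a Benjamini-Hochberg adjusted p under 0.05 from limma over all genes tested. A lack of overlap between the arrays of 2 groups was common among all genes tested. It held for 77% of them between the genotypes at 4 weeks, for 27.3% at 1 week and for 80.8% in WT between the ages. Between 74.3% and 86.6% of the spots of an array were above background. At 1 week the share was 86.6%, 82.6% and 86.3% on WT replicates 1, 2 and 3 and 76.7% on WT replicate 4. It was 74.3% to 78.5% on the 1-week Glis3KO2 arrays and 75.3% to 78.6% on the 4-week arrays. The part of this unevenness in the results was not tested. Glis3 itself was above background on 0 of 4 Glis3KO2 and 4 of 4 WT arrays at 1 week and was at least 4.25-fold lower in Glis3KO2, against the background level (limma adjusted p = 0.00571). At 4 weeks Glis3 was above background on no array of either genotype, so it checks no label there. All 89 genes of the chain were tested in every comparison, and only Cox4i2 was not above background on all 14 arrays. At 1 week, Glis3KO2 replicates 3 and 4 stood apart from the other arrays for these genes, and at 4 weeks Glis3KO2 replicate 3 lay nearer to WT than the other Glis3KO2 arrays for 59 of the 89. The germ cell isoforms at 4 weeks, and the calls and the chain median at 1 week, are also given without them. Pair differences and most other genes are given on all arrays only.

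At 4 weeks the germ cell isoforms were lower in Glis3KO2 testis and their counterparts were higher. Cyct had log2 signals of 2.13, 2.51 and 3.77 in Glis3KO2 and 4.83, 4.85 and 4.81 in WT. Every Glis3KO2 array lay below every WT array, and replicate 3 was the nearest to WT. Cycs, the cytochrome c of most tissues, which also triggers caspase activation when released from mitochondria, had 5.51, 5.88 and 5.34 in Glis3KO2 and 4.07, 4.02 and 4.19 in WT, with all Glis3KO2 arrays above all WT arrays. The difference in log2 signal came to -2.03 (SE 0.40, limma adjusted p = 0.00377) for Cyct and 1.48 (SE 0.18, limma adjusted p = 0.000829) for Cycs. The other 2 probes of Cycs gave 1.44 and 1.43.

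Cox6b2, the testis form of the subunit that lies on the cytochrome c side of complex IV, had 2.21, 2.38 and 3.67 in Glis3KO2 and 4.62, 4.76 and 4.59 in WT. Its counterpart Cox6b1 had 0.27, 0.43 and -0.03 in Glis3KO2 and -0.49, -0.53 and -0.72 in WT. The groups did not overlap for either gene, and the directions were opposite. The difference in log2 signal came to -1.90 (SE 0.38, limma adjusted p = 0.00397) for Cox6b2 and 0.81 (SE 0.17, limma adjusted p = 0.00519) for Cox6b1. Cox8c, a small subunit of complex IV, had 4.23, 4.69 and 5.77 in Glis3KO2 and 6.58, 6.71 and 6.61 in WT. Cox8a had 5.15, 5.11 and 4.46 in Glis3KO2 and 3.48, 3.48 and 3.32 in WT. Again no array of one genotype reached the other, and replicate 3 of Glis3KO2 was the nearest to WT for both genes. The difference in log2 signal came to -1.74 (SE 0.38, limma adjusted p = 0.00547) for Cox8c and 1.48 (SE 0.22, limma adjusted p = 0.00135) for Cox8a. All 6 genes kept their direction and their call in each of 18 alternative settings. Without Glis3KO2 replicate 3 the differences were -2.51 for Cyct, -2.36 for Cox6b2 and -2.17 for Cox8c. On the slide that holds 2 arrays of each genotype, which also lacks Glis3KO2 replicate 3, they were -2.50, -2.31 and -2.13. The other slide holds Glis3KO2 replicate 3 and WT replicate 2, which lay closer together. Their log2 signals were 3.77 and 4.85 for Cyct, 3.67 and 4.76 for Cox6b2, and 5.77 and 6.71 for Cox8c.

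**Figure D1:**
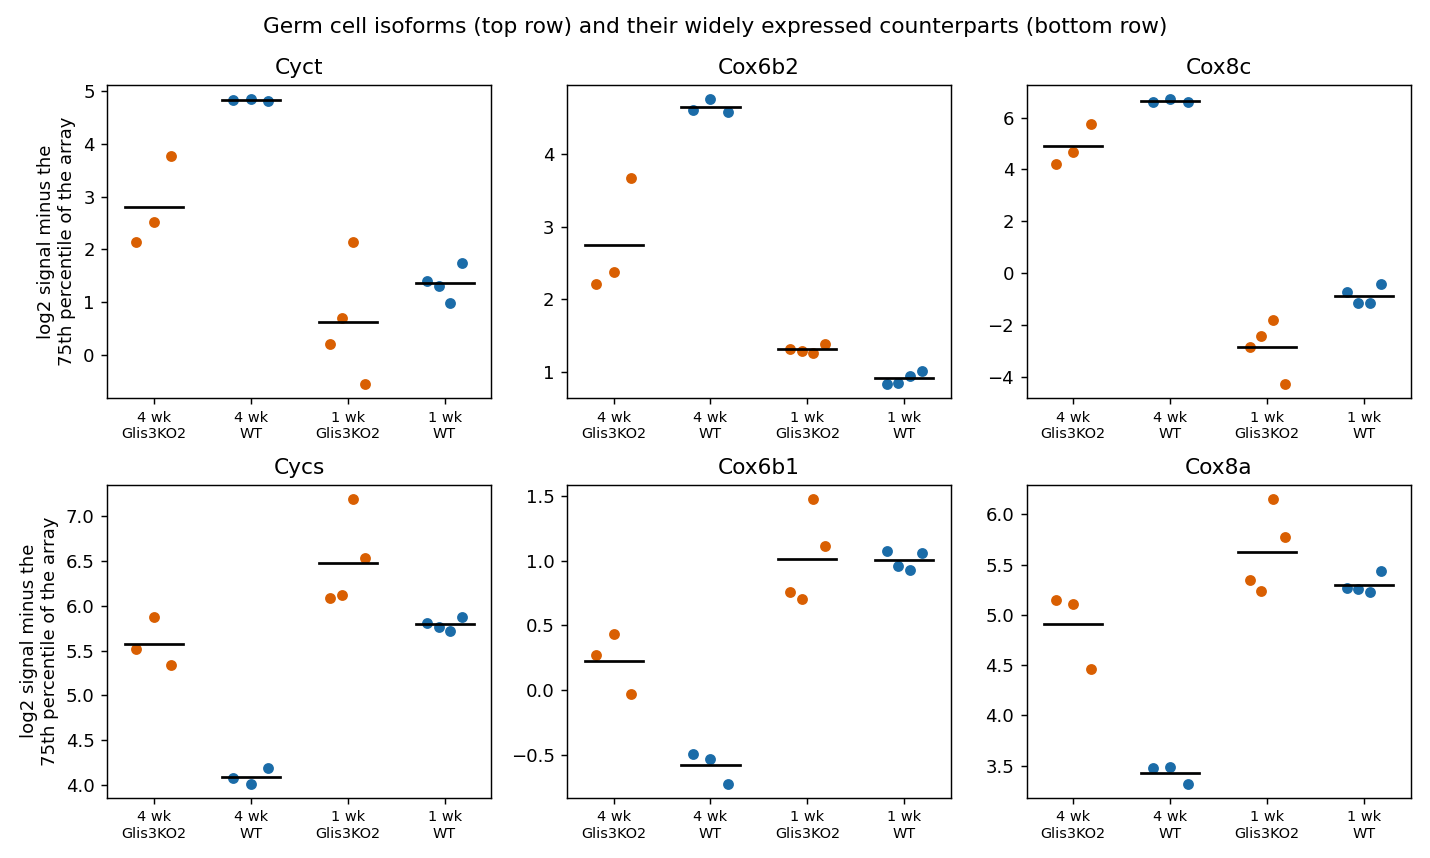
Log2 signal minus the 75th percentile of the array for the 3 germ cell isoforms (top) and their widely expressed counterparts (bottom), by group, with 1 point per array and a line at the group mean. At 4 weeks the Glis3KO2 points of Cyct, Cox6b2 and Cox8c lie below the WT points and those of Cycs, Cox6b1 and Cox8a above them, and each panel has its own scale.

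The sequence around the start of these genes is shown for the 2 germ cell pairs for which the RefSeq promoter table (GRCm38.p6) holds both genes, because the members of each pair moved in opposite directions. Each window runs from 250 bases before to 50 bases after the annotated start, 5′ to 3′ on the strand of the gene. Capitals mark matches, on either strand, to motifs of factors known to act on respiratory chain genes: the NRF1 motif, CCGGAAG (ETS factors such as GABP) and TGACGTCA (CREB). Cyct lies at chr2:76360404-76360703, Cycs at chr6:50566520-50566819, Cox6b2 at chr7:4753045-4753344 and Cox6b1 at chr7:30626065-30626364, all on the minus strand.
Cyct: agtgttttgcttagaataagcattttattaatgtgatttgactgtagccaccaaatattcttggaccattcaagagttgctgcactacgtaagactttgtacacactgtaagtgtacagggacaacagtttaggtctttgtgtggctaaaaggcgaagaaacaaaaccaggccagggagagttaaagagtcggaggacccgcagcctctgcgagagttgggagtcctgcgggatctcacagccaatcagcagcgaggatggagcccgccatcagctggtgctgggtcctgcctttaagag
Cycs: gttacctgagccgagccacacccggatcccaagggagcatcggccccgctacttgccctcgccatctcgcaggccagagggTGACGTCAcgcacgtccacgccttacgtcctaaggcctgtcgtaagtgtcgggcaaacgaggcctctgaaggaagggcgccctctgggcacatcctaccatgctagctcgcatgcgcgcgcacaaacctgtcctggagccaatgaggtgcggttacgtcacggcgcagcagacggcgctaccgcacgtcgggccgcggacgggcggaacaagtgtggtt
Cox6b2: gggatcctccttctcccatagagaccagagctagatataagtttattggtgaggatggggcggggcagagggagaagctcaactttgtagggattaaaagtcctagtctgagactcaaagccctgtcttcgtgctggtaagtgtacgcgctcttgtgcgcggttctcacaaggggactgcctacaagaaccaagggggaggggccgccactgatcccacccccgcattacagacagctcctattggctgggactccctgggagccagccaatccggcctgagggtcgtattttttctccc
Cox6b1: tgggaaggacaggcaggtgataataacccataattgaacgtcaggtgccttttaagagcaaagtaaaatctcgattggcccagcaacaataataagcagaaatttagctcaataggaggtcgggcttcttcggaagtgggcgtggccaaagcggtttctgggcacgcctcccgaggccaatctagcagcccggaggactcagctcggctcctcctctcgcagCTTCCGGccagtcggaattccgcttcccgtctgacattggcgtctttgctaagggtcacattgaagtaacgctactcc
The Cycs window held 1 match to TGACGTCA at bases 82 to 89 and the Cox6b1 window 1 match to CCGGAAG, read on the other strand, at bases 223 to 229. The Cyct and Cox6b2 windows held no match to the 3 motifs. GC made up 48.3% of the Cyct window and 55.7% of the Cox6b2 window, against 65.0% for Cycs and 53.0% for Cox6b1, and the median of all 32851 windows was 52.7%. Of the 89 genes, 72 matched the table, with 77 windows. The NRF1 motif was found in 23.4% of these windows, against 4.6% of all windows, CCGGAAG in 24.7% against 8.86%, and TGACGTCA in 6.49% against 1.79%. Windows of genes lower in Glis3KO2 at 4 weeks held the NRF1 motif in 9 of 38 cases, those of genes higher in 3 of 13 and those of genes not called in 6 of 26. For CCGGAAG these counts were 6 of 38, 4 of 13 and 9 of 26, and for TGACGTCA 2 of 38, 1 of 13 and 2 of 26. The differences between these shares were not tested. The motif shares are descriptions of these windows and say nothing of binding.

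Within each array, the log2 signal of an isoform minus that of its counterpart shows whether the 2 changed unequally. For Cyct minus Cycs, this measure stood at -4.12, -4.11 and -2.31 on the 4-week Glis3KO2 arrays relative to the WT mean of that age, against 0.02, 0.10 and -0.11 on the WT arrays. For Cox6b2 minus Cox6b1 it was -3.30, -3.30 and -1.54 in Glis3KO2, against -0.13, 0.06 and 0.07 in WT. For Cox8c minus Cox8a it was -4.12, -3.62 and -1.90 in Glis3KO2, against -0.10, 0.02 and 0.08 in WT. No Glis3KO2 array came near the WT arrays in any of the 3 pairs. The mean differences were -3.51, -2.71 and -3.21, each with an exact two-sided permutation p of 0.1, the smallest that 3 arrays against 3 can give, and 0.131 after adjustment over the 21 tests of 7 pairs in 3 comparisons. Of the isoforms of other tissues, Cox7a1 minus Cox7a2 (heart and muscle form minus liver form) differed by 2.21 and Cox6a2 minus Cox6a1 by 1.05, both without overlap of the groups and with the same adjusted exact p of 0.131. Cox8b minus Cox8a differed by -1.33 with the same p, while Cox8b itself did not pass the test (0.15, limma adjusted p = 0.689). Cox4i2 minus Cox4i1 overlapped between the genotypes (0.36, exact permutation p = 0.3).

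Over the whole chain at 4 weeks, 15 of the 89 genes were higher and 42 lower in Glis3KO2, while 32 did not pass the test. In this comparison 69.2% of the 21334 genes tested were called, 35.2% as higher and 33.9% as lower, so the count called among the chain genes is near the background. Of the brightest 25% of genes, which holds 80 of the 89, 31.6% were called higher and 45.6% lower. The share of chain genes called lower, 47.2%, is near that of these bright genes, while the share called higher, 16.9%, is below theirs. The median log2 difference of the 89 genes was -0.32, that of all genes 0.03 and that of the brightest 25% of genes -0.24. The split depended on the scaling of the arrays. With scaling to the median of each array or with normexp background correction, 45 and 39 genes were lower and 14 and 15 higher. Quantile normalization left 19 lower and 21 higher, with a median of -0.0009, so no direction of the chain as a whole can be stated apart from the choice of scaling. The changes of the isoforms above kept their direction under each of these scalings.

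**Figure D2:**
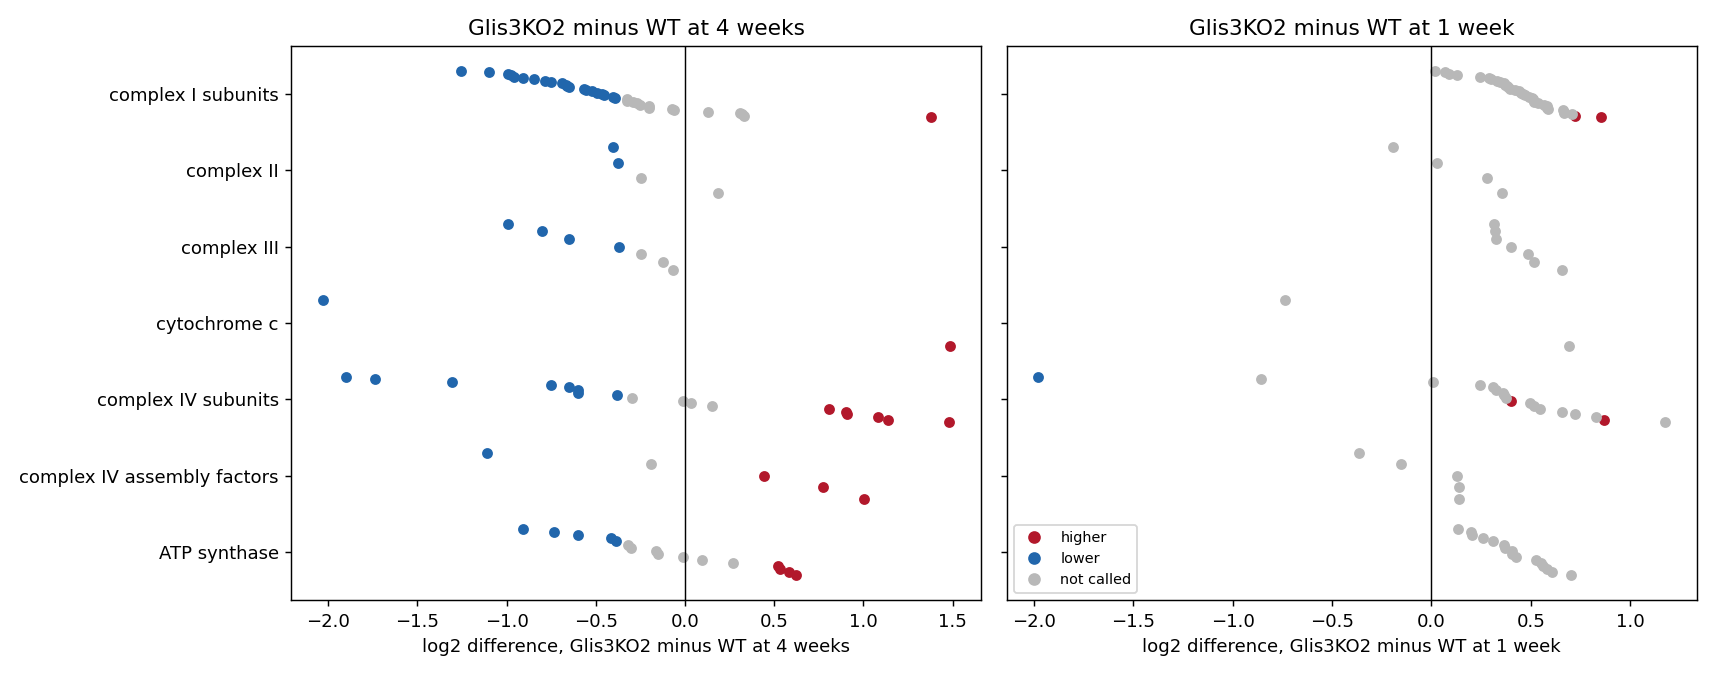
Log2 difference, Glis3KO2 minus WT, of each gene at 4 weeks (left) and 1 week (right), by class, with 1 point per gene and without Ndufaf1 and Cox4nb. Red points were called higher and blue points lower at a limma adjusted p under 0.05. At 4 weeks 21 of 35 complex I subunits are blue and 1 is red, while complex IV subunits and ATP synthase hold both colours. At 1 week 4 genes are red and 1 is blue.

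**Figure D3:**
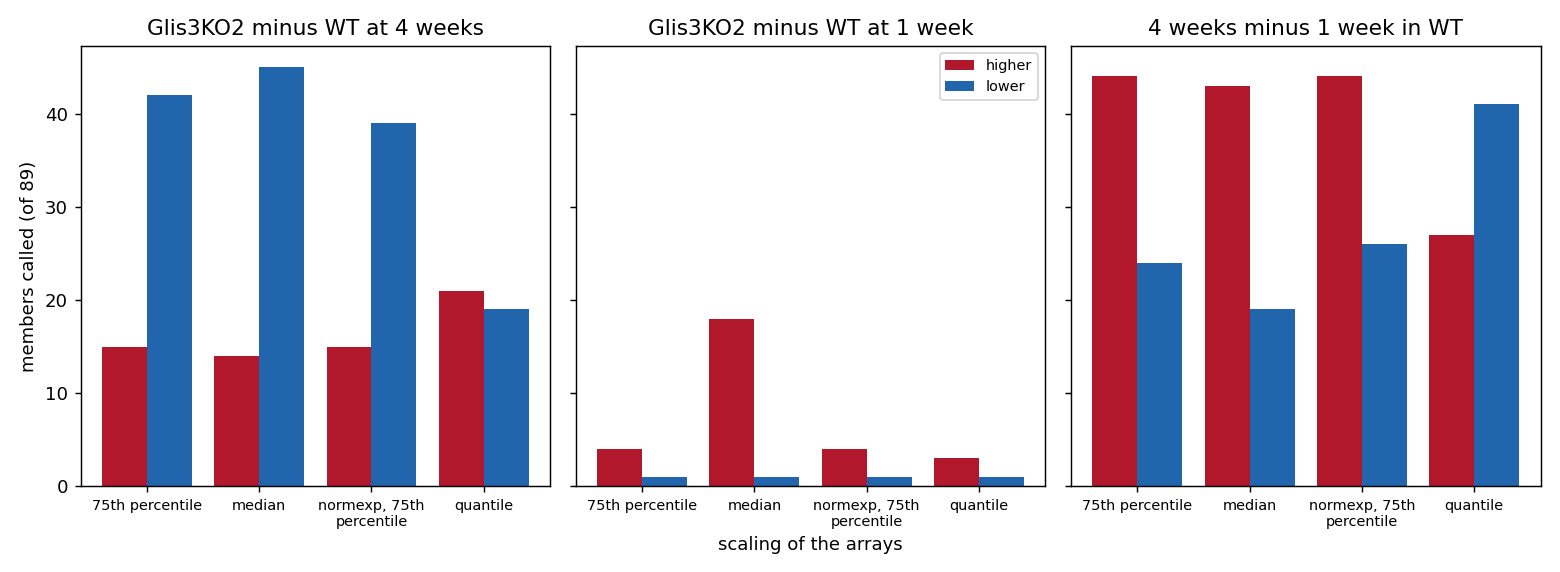
Number of the 89 genes called higher (red) and lower (blue) under 4 ways of scaling the arrays, for Glis3KO2 minus WT at 4 weeks and at 1 week and for 4 weeks minus 1 week in WT. Under quantile normalization the bars at 4 weeks are nearly equal, with 21 higher and 19 lower, and those of the WT age comparison change places, with 27 higher and 41 lower.

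Counts by class stand beside the 35.2% of all genes called higher and the 33.9% called lower at 4 weeks. Complex I subunits were lower in 21 of 35 cases and higher in 1 at 4 weeks, with a median of -0.46. Under quantile normalization 8 were lower and 4 higher, with a median of -0.11. Ndufa12, an accessory subunit of the matrix arm, had log2 signals of 4.16, 4.37 and 4.80 in Glis3KO2 and 5.66, 5.73 and 5.71 in WT, and all 3 of its probes fell by amounts between 1.26 and 1.29. It differed by -1.26 (SE 0.19, limma adjusted p = 0.00154). The small membrane arm subunits Ndufc1 and Ndufb2 differed by -1.10 and -0.98, and Ndufv2, an iron-sulfur subunit of the part that oxidizes NADH, by -0.99, each without overlap. The 1 subunit that rose was Ndufb11, a membrane arm subunit encoded on the X chromosome. It had 5.30, 5.29 and 4.83 in Glis3KO2 and 3.77, 3.84 and 3.67 in WT, a difference of 1.38 (SE 0.18, limma adjusted p = 0.000963). Ndufa1, another X-linked subunit, did not pass the test (0.33, limma adjusted p = 0.0963), while the X-linked complex IV subunit Cox7b rose, with 1.90, 2.11 and 1.65 in Glis3KO2 and 0.73, 0.99 and 0.52 in WT. Cox7b differed by 1.14 (SE 0.19, limma adjusted p = 0.00218).

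In complex II, Sdha, the subunit that binds FAD, and Sdhb, its iron-sulfur partner, were lower by small amounts (-0.37 and -0.41), and the membrane anchors Sdhc and Sdhd did not pass the test. The second probe of Sdha gave 0.80, and with the mean of both probes Sdha stood at 0.22 (limma adjusted p = 0.192). In complex III, 4 of 7 subunits were lower and 0 higher by limma, with 0 higher at an unadjusted p under 0.05 too. Uqcrq, a small subunit, had 5.69, 6.08 and 6.35 in Glis3KO2 and 6.94, 7.13 and 7.03 in WT, and the core protein Uqcrc1 had 4.74, 4.91 and 5.08 in Glis3KO2 and 5.66, 5.73 and 5.74 in WT. Their differences were -0.99 and -0.80. A second probe of Uqcrq gave 0.27, and with the mean of its probes Uqcrq no longer passed the test (-0.36, limma adjusted p = 0.0803). The Rieske iron-sulfur protein Uqcrfs1 (-0.37) and Sdhb both lost their call under quantile normalization, at -0.01 and -0.08. Over 18 settings the call was lost in 9 for Uqcrfs1, in 10 for Sdhb and in 9 for Sdha.

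Among the 18 complex IV subunits, 6 rose and 8 fell, with a median of -0.15. Besides Cox8a, Cox7b and Cox6b1, the genes that rose were Cox6a2 (1.08), Ndufa4 (0.91), first assigned to complex I and now placed in complex IV, and Cox7a1 (0.90). Besides Cox6b2 and Cox8c, Cox7a2 was the member that fell most, with 4.16, 4.36 and 4.73 in Glis3KO2 and 5.60, 5.89 and 5.69 in WT. It differed by -1.31 (SE 0.19, limma adjusted p = 0.00137), and its second probe gave -1.34. The other 5 that fell, among them the widely expressed Cox7c (-0.75) and Cox4i1 (-0.65), had differences of -0.75 to -0.38. One of them, Cox5a (-0.60), is named here after its values were seen, because its second probe, above background on all 3 Glis3KO2 arrays and on no WT array, went the other way. The opposite moves of Cox7a1 and Cox7a2 took place in a pair in which neither gene is a germ cell isoform.

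Assembly factors of complex IV were split. Cox15, which makes heme A, had -0.48, -0.26 and -0.91 in Glis3KO2 and -1.40, -1.72 and -1.55 in WT, a difference of 1.00. Cox18, which helps insert a mitochondrially encoded subunit into the membrane, differed by 0.78 and its second probe by 0.80. Cox11, which delivers copper to the catalytic core, had 2.05, 2.19 and 2.70 in Glis3KO2 and 3.38, 3.48 and 3.42 in WT, a difference of -1.11. The copper chaperone Cox17 differed by 0.44 on its brightest probe and by -0.46 on the other, so its direction is not settled, and Cox10 did not pass the test. Of the 16 ATP synthase genes, 4 rose and 5 fell, neither a larger share than among all genes. The catalytic core subunits Atp5a1 and Atp5b, named here for their role, did not pass the test (0.27 and -0.01). Genes that rose encode subunit c (Atp5g2 at 0.62, Atp5g3 at 0.52), the gamma subunit (Atp5c1 at 0.53) and subunit g (Atp5l at 0.58). Atp5s, named as a coupling factor of ATP synthase, had 1.10, 1.19 and 1.29 in Glis3KO2 and 2.08, 2.07 and 2.15 in WT and fell by 0.91 (limma adjusted p = 0.00139). The epsilon subunit Atp5e fell by 0.73 and subunit e, Atp5k, by 0.60. Under quantile normalization Atp5e and Atp5k lost their call (-0.30 and -0.32), and 6 ATP synthase genes were higher and 1 lower.

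Markers of several cell types also differed at 4 weeks. Their counts stand beside the 35.2% of all genes called higher and the 33.9% called lower. At 4 weeks 14 of 14 spermatid markers and 12 of 12 spermatocyte markers were lower in Glis3KO2, all above background in both genotypes. The summed signal of the spermatid list, relative to the 75th percentile of the array, was 76.9 to 181 in Glis3KO2 and 735 to 1065 in WT. For spermatocytes it was 138 to 256 in Glis3KO2 and 372 to 406 in WT. Markers of undifferentiated spermatogonia were mixed, with 2 of 8 tested lower, 1 higher and 5 not called. Their sums were 4.26 to 6.03 in Glis3KO2 and 8.10 to 8.73 in WT. Of 4 red blood cell markers tested, 0 were called. Sertoli cell markers were higher in 11 of 12 cases, with sums of 457 to 603 in Glis3KO2 and 166 to 182 in WT, and macrophage markers in 6 of 8, with 1 lower and sums of 23.9 to 34.2 in Glis3KO2 and 12.3 to 16.2 in WT. Peritubular markers were higher in 4 of 6 cases and lower in 1, with sums of 40.7 to 79.1 in Glis3KO2 and 27.3 to 29.3 in WT, and endothelial markers were higher in 3 of 6. Leydig cell markers were lower in 4 of 9 cases and higher in 2, with sums of 11.3 to 33.7 in Glis3KO2 and 34.0 to 43.3 in WT. The adipocyte list, which holds genes also found in other cells, summed to 23.2 to 30.2 in Glis3KO2 and 10.9 to 13.5 in WT, with 2 of its 7 tested genes higher and 1 lower. Striated muscle markers, which bear on Cox6a2 and Cox7a1, summed to 4.42 to 8.19 in Glis3KO2 and 4.62 to 4.76 in WT, with 3 of 13 higher and 2 lower. Their part in the results was not tested. In whole testis, fewer cells of a type and less RNA per cell cannot be told apart.

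The WT arrays of both ages give the levels of these genes as the testis matures. Between 4 weeks and 1 week in WT, 44 of the 89 genes were higher at 4 weeks and 24 lower. Of all 23683 genes tested 80.9% were called, 31.1% as higher and 49.8% as lower. The median of the chain was 0.25, that of all genes -0.51 and that of the brightest 25% -0.27. Under quantile normalization 27 chain genes were higher and 41 lower and their median was -0.13, so here too the direction of the chain as a whole changed with the scaling. This comparison shares the 4-week WT arrays with the genotype comparison at 4 weeks, so their values stand side by side without being set against each other. Each slide holds arrays of 1 age, and with slide as a random block 43 genes were higher and 24 lower. All WT arrays of 4 weeks were scanned on 1 day and all WT arrays of 1 week on another, so age and scan day cannot be told apart.

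The germ cell isoforms had the highest differences between the ages in WT. Cox8c had log2 signals of 6.58, 6.71 and 6.61 at 4 weeks and -0.72, -1.17, -1.15 and -0.44 at 1 week. Cox6b2 had 4.62, 4.76 and 4.59 at 4 weeks and 0.83, 0.85, 0.94 and 1.01 at 1 week. Cyct had 4.83, 4.85 and 4.81 at 4 weeks and 1.39, 1.31, 0.98 and 1.75 at 1 week. All 3 were above background on every array of both ages, and the ages were far apart for each. The log2 differences were 7.50 (SE 0.19) for Cox8c, 3.75 (SE 0.09) for Cox6b2 and 3.48 (SE 0.17) for Cyct, with limma adjusted p-values of 1.18e-07, 8.26e-08 and 1.77e-06. Their counterparts were lower at 4 weeks, with differences of -1.87 for Cox8a, -1.70 for Cycs and -1.59 for Cox6b1. Within arrays the pair difference was 9.37 for Cox8c minus Cox8a, 5.34 for Cox6b2 minus Cox6b1 and 5.18 for Cyct minus Cycs, each with an exact two-sided permutation p of 0.0286, the smallest that 3 arrays against 4 can give, and 0.0858 after adjustment over the 21 tests. Cox7a1 minus Cox7a2 differed by -1.48 and Cox6a2 minus Cox6a1 by -1.80 with the same p-values.

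**Figure D4:**
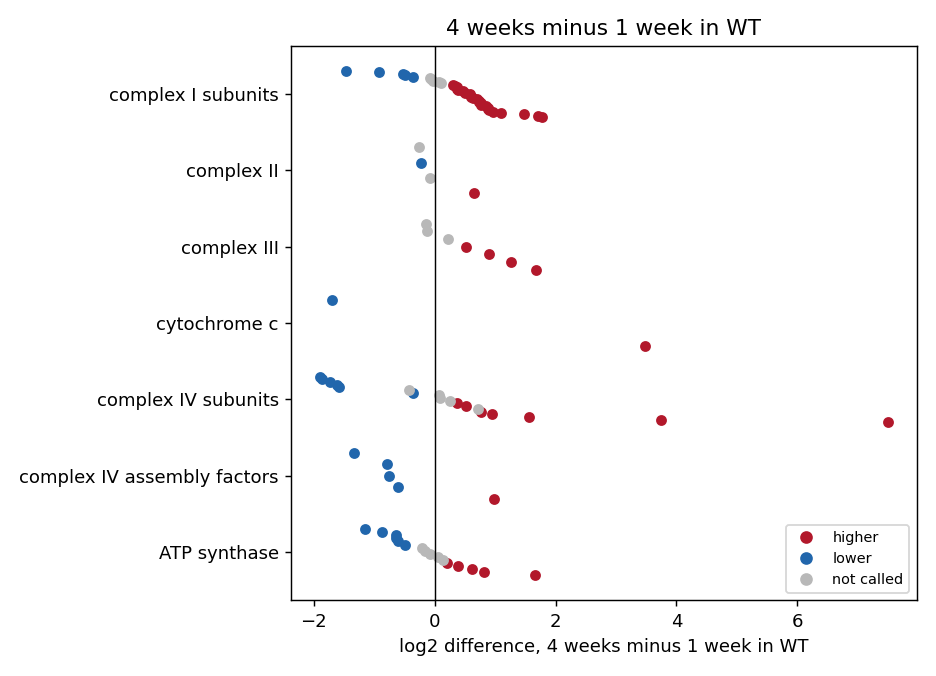
Log2 difference, 4 weeks minus 1 week in WT, of each gene by class except Ndufaf1 and Cox4nb, with 1 point per gene, red where called higher at 4 weeks and blue where called lower. The points far to the right are Cox8c (7.50) and Cox6b2 (3.75) in complex IV and Cyct (3.48) among the cytochromes c, while Cox7b (-1.90), Cox8a (-1.87) and Cycs (-1.70) lie at the left.

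Of the 35 complex I subunits, 25 were higher at 4 weeks in WT and 5 lower, where 31.1% of all genes were higher and 49.8% lower. Ndufc1 differed by 1.78, Ndufa12 by 1.70, Ndufv2 by 1.47 and Ndufa5 by 1.10. Ndufb11 (-1.47) and Ndufa11 (-0.92), an accessory membrane arm subunit, were lower. Quantile normalization gave 12 complex I subunits higher and 11 lower. In complex III 4 of 7 were higher, with Uqcrq at 1.68 and Uqcrc1 at 1.27, and under quantile normalization 3 were higher and 3 lower. In complex IV 7 of 18 were higher and 6 lower, among the lower ones Cox7b (-1.90), Cox6a2 (-1.73) and Ndufa4 (-1.61). Cox11 was the 1 assembly factor that was higher (0.99), while Cox15, Cox17, Cox18 and Cox10 were lower, with differences of -1.34 to -0.61. In ATP synthase 5 were higher, led by Atp5s at 1.66, and 6 lower, led by Atp5g2 at -1.15, and under quantile normalization 3 were higher and 12 lower. In complex II, Sdhb was higher (0.65) and Sdhc lower (-0.23), a call that Sdhc lost in 12 of 18 settings, and quantile normalization gave 1 higher and 3 lower. Complex IV subunits, with 6 higher and 6 lower, and its assembly factors, with 1 and 4, kept similar counts there. Cox4nb, which is not a chain gene, was lower (-1.02). In the same comparison 14 of 14 spermatid markers and 12 of 12 spermatocyte markers were higher at 4 weeks and 10 of 12 Sertoli cell markers lower, with 1 higher. Striated muscle markers were lower in 11 of 13 cases and higher in 1, with sums of 4.62 to 4.76 at 4 weeks and 12.9 to 15.5 at 1 week. Peritubular markers were lower in 6 of 6 cases and endothelial markers in 5 of 6. Markers of undifferentiated spermatogonia were lower in 6 of 9 tested cases and higher in 2, and Leydig cell markers lower in 4 of 9 and higher in 2. Their part was not tested.

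At 1 week 4 of the 89 genes were higher in Glis3KO2 and 1 was lower. Of all 22685 genes tested 10.1% were called, 3.95% as higher and 6.16% as lower, so the chain holds no more calls than the background. The gene that fell was Cox8c, with log2 signals of -2.85, -2.43, -1.83 and -4.28 in Glis3KO2 and -0.72, -1.17, -1.15 and -0.44 in WT. Its groups did not overlap, and it differed by -1.98 (SE 0.48, limma adjusted p = 0.0434). Cyct did not pass the test and overlapped between the genotypes (-0.74, limma adjusted p = 0.316), with 0.20, 0.69, 2.14 and -0.56 in Glis3KO2 and 1.39, 1.31, 0.98 and 1.75 in WT. Cox6b2 went the other way from Cox8c. It had 1.31, 1.29, 1.25 and 1.39 in Glis3KO2 and 0.83, 0.85, 0.94 and 1.01 in WT, without overlap, a difference of 0.40 (SE 0.10, limma adjusted p = 0.044). The other genes that rose were Cox7a1 (0.87), Ndufa1 (0.86) and Ndufb5 (0.72), the last a membrane arm subunit of complex I. Within arrays, Cyct minus Cycs differed by -1.43 and Cox8c minus Cox8a by -2.31, both without overlap (exact two-sided permutation p = 0.0286, the smallest that 4 arrays against 4 can give, and 0.0858 adjusted), while Cox6b2 minus Cox6b1 differed by 0.40 with overlap (exact permutation p = 0.114).

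The calls at 1 week were lost in many settings, while the directions held. Over 22 settings each, Cox6b2 lost its call in 15 and differed by 0.33 to 0.66, and Cox8c lost it in 10 and differed by -2.32 to -1.41. Replicate 3 of Glis3KO2 was the lowest of its group for Cox6b2. The level of the whole chain on Glis3KO2 replicates 1 to 4 stood at 0.13, 0.11, 0.92 and 0.48 over the WT mean of that age, as medians of the 89 genes. Replicate 3 was the highest of its group for 81 of the 89 genes, and replicate 4 lies alone on its slide, with another scan day. Among WT arrays, replicate 4 was the highest for 77 genes. Without Glis3KO2 replicates 3 and 4 together, a choice made after seeing the data, 0 genes were higher and 1 lower by limma (15 and 4 at an unadjusted p under 0.05), and the median of the chain was 0.13 in place of 0.40. Cox8c kept its call without them (-1.77), and Cox6b2 stood at 0.39 (limma adjusted p = 0.0796), Cox7a1 at 0.54, Ndufa1 at 0.52 and Ndufb5 at 0.44. On slide 1, with 2 arrays of each genotype, the median was 0.56 and 0 genes were called by limma (3 higher and 2 lower at an unadjusted p under 0.05). Slide 2 holds 1 Glis3KO2 array beside WT replicates 2 and 4, too few for its count of calls to be read, and its median was 0.07. With slide as a block, 0 genes were called in either direction (5 higher and 1 lower at an unadjusted p under 0.05). At an adjusted p under 0.05 all 5 calls were also lost when WT replicate 1, 2 or 3 or Glis3KO2 replicate 1 was left out, and the 4 higher calls when Glis3KO2 replicate 4 was left out. Median scaling, which moved the median of all genes up by 0.26, gave 18 higher. The brightest 25% of all genes had a median of 0.23. Marker counts at this age stand beside the 3.95% of all genes called higher and the 6.16% called lower. Undifferentiated spermatogonia markers were lower in 7 of 9 tested cases, with sums of 1.23 to 2.28 in Glis3KO2 and 3.12 to 3.44 in WT. Of the spermatid markers 3 of 10 tested were lower, and of the spermatocyte markers 3 of 12 were lower and 1 higher. Sertoli cell markers were higher in 6 of 12 cases, macrophage markers in 5 of 8, with sums of 16.8 to 26.1 in Glis3KO2 and 9.02 to 14.3 in WT, and Leydig cell markers in 5 of 9, with sums of 50.7 or more in Glis3KO2 and 38.9 or less in WT. The adipocyte list summed to 17.5, 19.1, 27.2 and 29.1 on Glis3KO2 replicates 1 to 4 and to 14.4 to 17.0 in WT. Macrophage sums on these replicates were 17.9, 16.8, 26.1 and 24.7, and endothelial sums 7.03, 5.95, 4.73 and 6.66. Red blood cell markers, with 0 of 4 tested called, summed to 63.6, 74.5, 158 and 103 there and to 45.2 to 73.7 in WT. Their part was not tested.

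**Figure D5:**
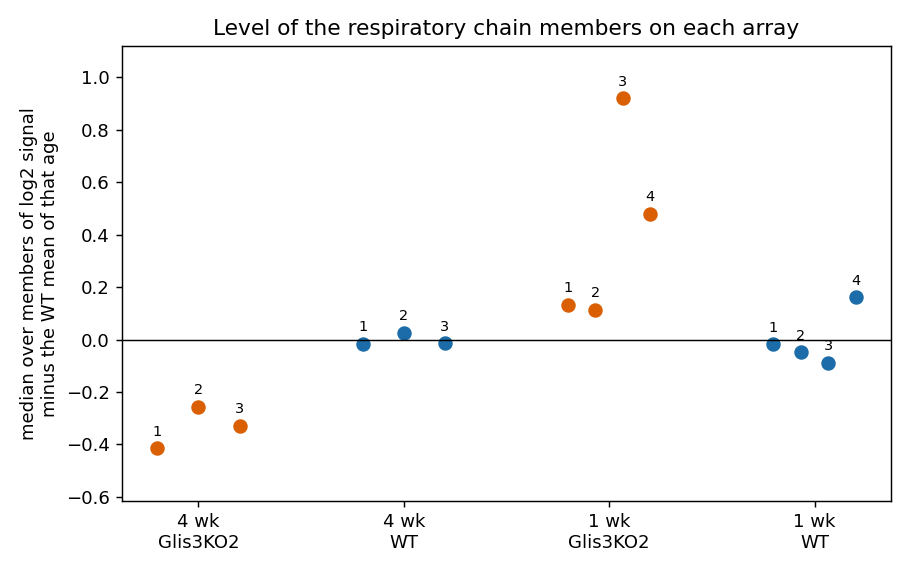
Median over the 89 genes of the log2 signal minus the WT mean of the same age, for each array by group, with the replicate number above each point. The 3 Glis3KO2 arrays of 4 weeks lie at -0.41, -0.26 and -0.33, below the WT arrays, and at 1 week Glis3KO2 replicates 3 and 4 lie at 0.92 and 0.48, above the others.

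The genotype effect differed between the ages for 49 of the 89 genes, as a difference of the 4-week effect minus the 1-week effect in 1 fit of all 14 arrays. It was lower at 4 weeks for 44 and higher for 5, where 51% of all 23763 genes were called, 21.6% as lower and 29.4% as higher. Of the brightest 25% of genes, which holds 83 of the 89, 29.2% were called lower and 33.4% higher. Of the isoforms, Cox6b2 differed by -2.30, Cox8a by 1.15 and Cox6b1 by 0.80, while Cyct (-1.29, limma adjusted p = 0.162), Cox8c (0.24, limma adjusted p = 0.793) and Cycs (0.79, limma adjusted p = 0.061) did not pass the test. The split again moved with the scaling. Quantile normalization gave 14 lower and 14 higher and median scaling 55 lower and 0 higher by limma (64 and 1 at an unadjusted p under 0.05). Without 1-week Glis3KO2 replicates 3 and 4, 42 were lower and 10 higher, and the median difference was -0.36 in place of -0.65.

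Genes that work beside the chain were read from 4 lists, to be set against the 69.2% of all genes called at 4 weeks, 35.2% as higher and 33.9% as lower. Germ cell isoforms of other energy enzymes and their counterparts were called in 15 of 16 cases at 4 weeks, 8 lower and 7 higher. This list is not independent of the others, as some genes are counted in more than 1 list. Gapdhs is also a spermatid marker, Pgk2 a spermatocyte marker and Pdha1 a citric acid cycle gene. The sperm glycolytic enzymes Gapdhs (-2.98), Pgk2 (-2.51) and Pgam2 (-2.34) were lower, and Pgam1 (1.83), the nucleotide carrier Slc25a5 (1.61) and hexokinase Hk2 (1.59) were higher. Of the citric acid cycle genes 5 were higher and 6 lower of 16, a share near that of all genes. Suclg2 (1.89), Idh3g (1.32) and Pdha1 (1.31) rose, and Dlat (-1.27), Ogdh (-1.16) and Sucla2 (-1.05) fell. Of 12 regulators of mitochondrial biogenesis 4 rose and 4 fell, also near that share. The coactivator Pprc1 (1.01) and the mitochondrial transcription factors Tfb2m (0.91) and Tfam (0.87) were higher. Tfb1m (-1.61), which methylates mitochondrial ribosomal RNA, the transcription factor Nrf1 (-0.79) and the coactivator Ppargc1a (-0.73) were lower. Of 15 further chain and assembly genes, fewer in all than that share, 5 rose, among them Oxa1l (1.41), Ttc19 (1.00) and Surf1 (0.92), and 3 fell, Atpaf2 (-1.25), Nubpl (-0.56) and Higd2a (-0.55). At 1 week 1 to 3 genes of each list were called. The median differences at 4 weeks were -0.35, -0.19, -0.03 and 0.19 for the 4 lists in this order.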

How the data were processed

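Total RNA of testis was labelled with Cy3 and hybridised to 14 single-colour Agilent arrays, 1 per sample, per the labels. The values used are the processed spot intensities deposited by the authors, from which Agilent Feature Extraction 9.5 had subtracted local background, per the file headers and the submitters' processing notes. No scaling between arrays had been applied to these deposited intensities. Spot flags and other scanner columns (above background, saturated, non-uniform) were used as deposited. The files carry no read depth.

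Here log2 intensities were scaled by subtracting the 75th percentile of each array, computed from the deposited intensities. Non-uniform spots were left out, and the brightest probe stood for each gene name. A gene entered a test when 3 or more arrays of any 1 group had it well above background. The fits used lmFit and eBayes of limma 3.58.1 (R 4.3.3), with Benjamini-Hochberg adjustment over all genes tested. The procedure was also run on simulated data in which few genes changed. At 4 weeks it recovered 28% of log2 changes of 1 and 70% of those of 2. At 1 week it recovered 44% and 82%, and in WT between the ages 59% and 74%. A far larger share of genes was called in the real data at 4 weeks (69.2%) and in WT between the ages (80.9%). The recovered shares therefore do not carry over to these 2 comparisons. At 1 week 10.1% of genes were called. Each genotype comparison used the arrays of 1 age, and the difference between the ages used all 14. Isoform pairs were compared with exact two-sided permutation tests over arrays. Slides were read from the file headers. Alternatives changed the scaling, background correction, filter, probe choice, moderation, slide or replicate block and the arrays included.

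Genes were named by rule: both genes of each isoform pair, and in each comparison and class up to 4 per direction with the largest differences among those called, above background and without overlap (overlap was not considered for the difference between the ages), with up to 3 per direction of each related list. The genes, lists and rule were chosen with earlier results of these data known. Sequences came from the RefSeq promoter table of build GRCm38.p6, read with Python 3.11.15.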

Additional observations from a re-analysis of the deposited data

Results flagged for a closer look

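At 1 week, 6 of 120 groups of 4 arrays held 1 array apart from the rest by Dixon's test, where chance gives about 1 in 20. Glis3KO2 replicate 3 was apart for Sdhb at a log2 signal of 3.97 (others 3.25 to 3.37), for Ndufa11 at 2.24 (others 1.51 to 1.63) and for Ndufs8 at 2.76 (others 1.82 to 1.96). WT replicate 4 was apart for Atp5e at 5.50 (others 5.21 to 5.23) and for Uqcrc1 at 4.67 (others 4.36 to 4.37), and WT replicate 3 for Uqcrfs1 at 3.12 (others 3.25 to 3.27).

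The genotype effect at 4 weeks minus that at 1 week passed the limma test for 44 genes with a lower and 5 with a higher effect at 4 weeks. Of all genes tested, 21.6% were called lower and 29.4% higher. In complex IV it was -2.30 for Cox6b2, -1.83 for Cox7a2, -1.13 for Cox7c, -1.10 for Cox6c, -0.90 for Cox4i1, 1.15 for Cox8a and 0.80 for Cox6b1. Among its assembly factors it was -0.96 for Cox11, 0.87 for Cox15 and 0.64 for Cox18. In complex I it was -1.93 for Ndufa12, -1.76 for Ndufc1, -1.64 for Ndufb2, -1.58 for Ndufv2 and 0.81 for Ndufb11. Sdhb of complex II stood at -0.68, and in complex III Uqcrq stood at -1.65, Uqcrc1 at -1.12, Uqcrb at -0.98 and Uqcrfs1 at -0.88. In ATP synthase it was -1.28 for Atp5s, -1.16 for Atp5k, -1.14 for Atp5e and -0.99 for Atp5j. Over 25 settings the call was lost in 11 for Ndufb11 and in 9 each for Sdhb and Cox6c. Age and scan day cannot be told apart between the groups of the 2 ages.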

How the results depend on the processing

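At 4 weeks the 15 higher and 42 lower genes became 21 and 19 under quantile normalization, and leaving out 1 array gave 10 to 20 higher and 29 to 46 lower. At 1 week the 4 higher genes became 18 with median scaling, 7 with trend and robust moderation, 2 with the mean of all probes, 18 in 1 fit of all arrays and 0 with no filter, slide as a block, slide 1 alone or without Glis3KO2 replicates 3 and 4. The 1 lower gene became 0 with no filter, slide as a block or slide 1 alone. Slide 2 alone, with 1 Glis3KO2 array, also gave 0 and 0, a count that says nothing of stability. Leaving out 1 array gave 0 to 4 higher and 0 to 1 lower. In WT between the ages, 44 higher and 24 lower became 27 and 41 under quantile normalization, and 39 to 45 and 23 to 25 without 1 array. For the difference between the ages, 5 higher and 44 lower became 14 and 14 under quantile normalization, 0 higher with median scaling, 10 higher without 1-week Glis3KO2 replicates 3 and 4, and 2 to 8 and 35 to 48 without 1 array. The share of higher genes among all called at 1 week was 39.1%, against 74.2% with median scaling, 52.9% under quantile normalization and 51.7% with normexp, and for the difference between the ages 57.7%, against 42.2% with median scaling.

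Directions turned under quantile normalization for Atp5o at 4 weeks (0.078), and in WT between the ages for the median of the 89 genes (-0.13), Atp5k (-0.025) and Uqcrc2 (-0.022). With the mean of all probes they turned for Sdha (0.22) and Cox17 (-0.0083) at 4 weeks, and for Cox17 (0.11) and Cox5a (-0.24) in WT between the ages. The cause was not tested beyond the probe values given above. With replicate number as a block, 13 genes were higher and 31 lower at 4 weeks, 0 and 0 at 1 week by limma (23 and 2 at an unadjusted p under 0.05), 44 and 23 in WT between the ages and 3 and 36 for the difference between the ages. Deviations of same-numbered arrays correlated at 0.14, -0.31 and 0.07 at 4 weeks and between -0.17 and 0.16 at 1 week. Arrays with different numbers reached 0.33 and -0.31 at 4 weeks and 0.44 and -0.36 at 1 week. The labels give no pairing, and these correlations cannot decide whether the numbers pair the samples. Precision is limited by 3 or 4 arrays a group.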
